A study of Mus musculus with 22 samples.

Results

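Cd177 (ENSMUSG00000052212) was followed through 22 RNA-seq libraries of mouse distal colon, as 1 of the 46078 genes counted. The gene was chosen by its higher level in Winnie and Winnie-Prolapse than in C57BL/6 colon, so its own values against C57BL/6 are a description and carry no test. The groups were 8 C57BL/6 mice (4 males and 4 females, aged 14 weeks), 7 Winnie mice (3 males and 4 females, aged 14 weeks) and 7 Winnie-Prolapse mice (4 males and 3 females, aged 18 weeks). Winnie mice carry a missense mutation of Muc2, the main secreted mucin of goblet cells, and develop colitis without any further treatment. Winnie-Prolapse mice are older animals of the same model that the labels class as severely inflamed, so age and prolapse cannot be told apart in this group. Each library came from 1 mouse, from a segment of distal colon that holds epithelium, muscle and immune cells together. In such bulk samples, fewer cells of a type and less RNA per cell cannot be told apart. The question was whether the level of Cd177 goes with genes of neutrophils or with genes of goblet cells and the rest of the epithelium.

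CD177 is a surface glycoprotein of the Ly6/uPAR family, held in the membrane by a lipid anchor, and is best known from neutrophils. It binds PECAM1 on endothelial cells and can hold proteinase 3, a granule protease, on the neutrophil surface together with the integrin made of the Itgam and Itgb2 products. CD177 has also been described in epithelial cells of the intestine. Neutrophils enter inflamed colon through chemokines of the CXC family, whereas goblet cells and colonocytes form the resident epithelium.

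On GRCm38, Cd177 lies on the minus strand at chr7:24743983-24760311 with 17 exons in its longest transcript, and no other annotated gene overlaps it. Its exons cover 2840 bases. The nearest gene on the side of its start site is Ceacam10, a carcinoembryonic antigen family member on the plus strand at chr7:24777206-24784657, 16894 bases away. The bases just upstream of both start sites are shown because these neighbouring genes were also among the most alike across libraries, as given below. They were taken from RefSeq on GRCm38.p6, at chr7:24760312-24760561 on the minus strand for Cd177 and at chr7:24776954-24777203 on the plus strand for 1 of the 2 listed starts of Ceacam10. Capitals mark exact matches to TATAAA, the core of the TATA box, and to GAGGAA, the core bound by the myeloid factor PU.1.

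Cd177: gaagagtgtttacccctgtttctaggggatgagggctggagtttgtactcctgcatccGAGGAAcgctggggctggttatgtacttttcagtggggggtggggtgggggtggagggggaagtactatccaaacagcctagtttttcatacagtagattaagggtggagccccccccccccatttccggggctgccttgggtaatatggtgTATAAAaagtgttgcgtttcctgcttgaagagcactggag

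Ceacam10: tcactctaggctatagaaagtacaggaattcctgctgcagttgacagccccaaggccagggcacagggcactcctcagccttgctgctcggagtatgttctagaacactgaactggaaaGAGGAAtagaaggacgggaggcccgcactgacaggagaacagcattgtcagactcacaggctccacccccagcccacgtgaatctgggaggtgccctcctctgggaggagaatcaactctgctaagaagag

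The motifs were searched on both strands of the 250 bases before each start. TATAAA began 40 bases before the Cd177 start site and GAGGAA 192 bases before it. GAGGAA began 131 bases before this Ceacam10 start, where TATAAA was absent from the window. Of all 32851 RefSeq promoter windows of that length, 12.4% held TATAAA and 23.3% held GAGGAA. The core of the interferon-stimulated response element, GAAANNGAA, was in neither gene's window and was in 7.13% of all windows, and the STAT motif TTCNNNGAA was in neither and in 7.02% of all windows.

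Library totals ran from 24817527 to 36344372 counts, and Cd177 itself had between 968 and 26793 counts in a library. Counting error on Cd177 was therefore at most 3.21% of its value, which is far below the spread between mice. A few libraries stood apart from their groups. C57BL/6 replicate 7 had 7901 CPM (counts scaled to a common library total) of Muc2, the largest value of its group, and only 3.80 CPM of Ly6g. Winnie-Prolapse replicate 6 held 18.0% of its counts in 6 milk protein genes. Squamous epithelium genes such as Krt14 and Krt5 summed to 2.33 to 3331 CPM over Winnie-Prolapse libraries, against at most 2.93 CPM in C57BL/6. In Winnie they summed to 52.7 CPM in replicate 2 and to at most 3.62 CPM in the other libraries.

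Cd177 was present in every library and exceeded its highest C57BL/6 value in all 7 Winnie and all 7 Winnie-Prolapse mice. In C57BL/6 its level was 50.0 ± 16.5 CPM (mean ± SD, n = 8), with a lowest value of 37.5, a median of 44.0 and a highest of 84.7 CPM. The highest value belonged to replicate 7, and the next was 64.8 CPM in replicate 5. In Winnie the level was 415 ± 263 CPM (n = 7), at 662, 858, 256, 279, 108, 285 and 455 CPM in replicates 1 to 7. In Winnie-Prolapse it was 550 ± 192 CPM (n = 7), at 734, 330, 554, 416, 450, 489 and 878 CPM. The means were 8.30 and 11.01 times that of C57BL/6. Winnie was the most variable group, with a 7.96-fold range between its lowest and highest mouse, against 2.26-fold in C57BL/6 and 2.66-fold in Winnie-Prolapse. Per kilobase of exon, Cd177 averaged 17.6 CPM in C57BL/6.

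**Figure D1:**
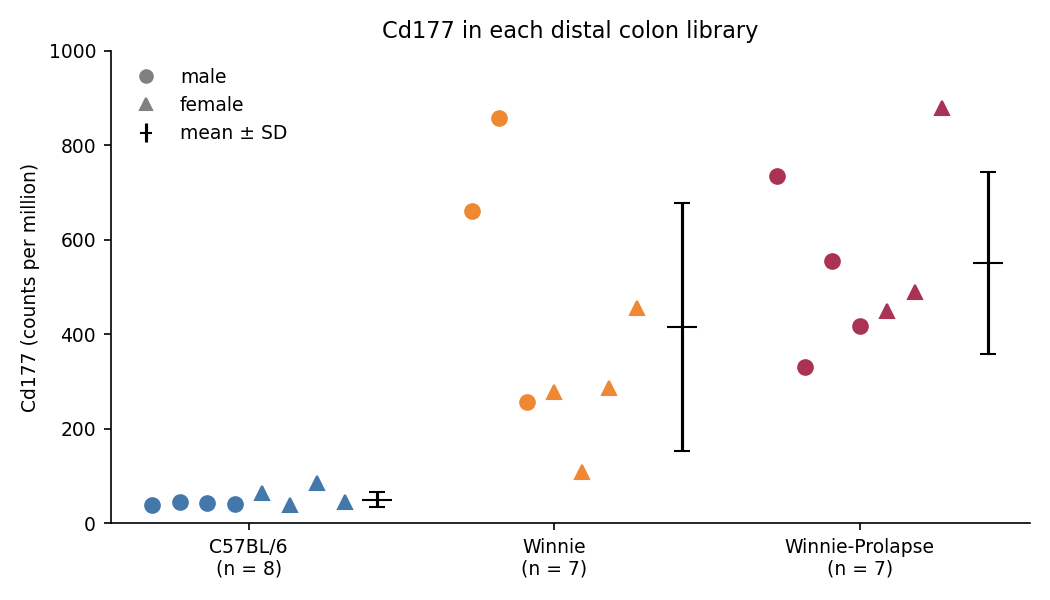
Cd177 in CPM for each of the 22 libraries, with circles for males, triangles for females and bars for the mean ± SD of each group. All 14 Winnie and Winnie-Prolapse libraries lie above the highest C57BL/6 value of 84.7 CPM, and Winnie and Winnie-Prolapse overlap.

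In the fit over all genes, Winnie had a log2 fold change of Cd177 over C57BL/6 of 3.14 (SE 0.36), and for Winnie-Prolapse the value was 3.56 (SE 0.26). Without C57BL/6 replicate 7 the values were 3.29 and 3.73, and without Winnie-Prolapse replicate 6 the second value was 3.58. Non-overlap with a higher level held for 0.463% of the 17289 genes tested in Winnie and for 6.5% of the 17397 tested in Winnie-Prolapse. Cd177 was chosen by this same contrast, so these shares are given only for scale.

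Winnie-Prolapse against Winnie was not the contrast that chose the gene. Cd177 did not pass the test there, with a log2 difference of 0.44 (SE 0.38, edgeR quasi-likelihood test, adjusted p = 0.477). The 2 groups of libraries overlapped from 330 to 858 CPM. At the limits used for all comparisons, an adjusted p under 0.001 and a change of at least 1.5-fold, edgeR called 0% of the 17041 genes higher and 0% lower. An unadjusted p under 0.05 was reached by 27.8% of them, DESeq2 called 482 genes higher and 162 lower at the same limits, and limma-voom called 0. At an adjusted p under 0.05 edgeR called 4.27% higher and 2.72% lower, and Cd177 was not among them.

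Sex showed no called difference in Cd177. Winnie males had 592 ± 307 CPM (n = 3) and Winnie females 282 ± 142 CPM (n = 4). C57BL/6 males had 41.6 ± 3.15 CPM and females 58.4 ± 20.9 CPM (n = 4 each), and Winnie-Prolapse males had 509 ± 177 CPM (n = 4) and females 606 ± 237 CPM (n = 3). Males were thus higher on average in 1 group and lower in the other 2, with overlapping ranges in all 3. The log2 difference of males from females across groups was 0.01 (SE 0.28, edgeR, adjusted p = 0.999), where 0.0788% of all genes were called at an adjusted p under 0.05. The interaction of sex with group gave an adjusted p of 0.395 (edgeR, unadjusted p = 0.0569), and 0% of all genes were called for it, with 13.1% under an unadjusted p of 0.05. No other tool was run for the interaction.

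Of the 22 listed neutrophil genes 17 were tested in Winnie-Prolapse against C57BL/6, and edgeR called 15 higher, beside 9.84% of all genes. Only 8 were tested in Winnie, so the filter on low counts itself favoured genes that were high in Winnie-Prolapse. In Winnie, neutrophil genes such as S100a9 did not follow Cd177 in every mouse. S100a9, a calcium-binding protein that fills neutrophil cytosol, was at 0.0331 to 0.617 CPM in C57BL/6 (median 0.0735). In Winnie it was at 4.29, 38.9, 3.82, 0.135, 0.164, 0.316 and 3.35 CPM in replicates 1 to 7. Replicates 4, 5 and 6 thus lay within the C57BL/6 range for S100a9 while their Cd177 was 279, 108 and 285 CPM. In Winnie-Prolapse S100a9 was at 23.7, 44.8, 16.7, 532, 177, 149 and 60.5 CPM, all above every C57BL/6 library and overlapping Winnie only through its replicate 2. Its partner S100a8 was called higher in Winnie-Prolapse than in C57BL/6 by 9.25 on the log2 scale (SE 0.73, edgeR, adjusted p = 2.15e-07).

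Retnlg, a resistin family member typical of mouse neutrophils, had no count in 7 of 8 C57BL/6 libraries and 0.0952 CPM in the other. It was at 0.22, 3.72, 1.04, 0.0338, 0.0328, 0.0288 and 0.1004 CPM in Winnie replicates 1 to 7 and at 3.61, 4.72, 0.787, 168, 64.1, 38.4 and 9.97 CPM in Winnie-Prolapse. The order of the Winnie-Prolapse mice for Retnlg and S100a9 differed from their order for Cd177. Replicate 4 had the most of both neutrophil genes and 416 CPM of Cd177, the second lowest of its group, whereas replicate 7, with the most Cd177, had 60.5 CPM of S100a9.

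Over the 21 listed neutrophil genes other than Ly6g, the summed level was 2.64 to 26.7 CPM in C57BL/6 (median 7.36), 8.43 to 188 CPM in Winnie (median 21.98) and 101 to 1910 CPM in Winnie-Prolapse (median 269). The sums of 5 Winnie libraries lay within the C57BL/6 range, and those of replicates 1 and 2 lay above it, at 35.5 and 188 CPM. Ly6g was set apart after its values were seen, and with it the sums of 5 Winnie libraries (replicates 1, 2, 5, 6 and 7), at 401 to 661 CPM, lay above the highest C57BL/6 sum of 383 CPM. Winnie replicates 1 to 7 had 14, 19, 15, 4, 1, 7 and 8 of the 21 genes above their highest C57BL/6 value, against 15 to 21 in the Winnie-Prolapse libraries. Cd177 per unit of this sum was 2.43 to 6.34 in 7 C57BL/6 libraries and 32.04 in replicate 7, which had the smallest sum. It was 4.57 to 33.9 in Winnie, above 6.34 in all but replicate 2, and 0.218 to 6.38 in Winnie-Prolapse. On the log2 scale, Cd177 exceeded the mean of these 21 genes by 9.36 ± 0.94 in Winnie (n = 7), against 7.88 ± 0.60 for C57BL/6 (n = 8) and 6.37 ± 1.92 for Winnie-Prolapse (n = 7).

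Ly6g, whose product defines mouse neutrophils in flow cytometry, went against the other listed neutrophil genes and was kept apart. It was at 242 to 356 CPM in 7 of 8 C57BL/6 libraries, 299.9 to 639 CPM in Winnie and 302 to 872 CPM in Winnie-Prolapse. Neither contrast with C57BL/6 passed the test (log2 fold change 0.81, adjusted p = 0.239, and 1.02, adjusted p = 0.104, edgeR). Ly6g lies among closely related Ly6 genes, and how reads shared by family members were counted was not given in the sources used here.

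By the test over all genes, 15 of the 22 neutrophil genes were called higher in Winnie-Prolapse than in C57BL/6, among the 17 that passed the filter on low counts, against 9.84% of all genes called higher and 8.47% lower. Genes that are nearly silent in C57BL/6 pass that filter only through the inflamed libraries, so the count describes these libraries. Csf3r, the receptor of the neutrophil growth factor, had a log2 fold change of 5.45 (SE 0.60), and Mmp8, neutrophil collagenase, one of 8.85 (SE 1.22). In Winnie 0 of the 8 genes that passed the filter were called by edgeR, where 0.0868% of all genes were called higher and 0.00578% lower. At an unadjusted p under 0.05 there were 4 of the 8, near the 39.9% of all genes. DESeq2, run without this filter, called 4 of the 22 at the main limits, where it called 758 of 22121 genes higher and 445 lower. At an adjusted p under 0.05 edgeR called 4 higher, against 7.42% of all genes called higher and 8.53% lower. These 4 were S100a8, Csf3r, Il1r2 and Hdc. In Winnie-Prolapse against Winnie, edgeR called 0 of 19 at the main limits and DESeq2 called 9, where DESeq2 called 482 of 22256 genes higher. Of the 19, 18 had an unadjusted p under 0.05, beside 27.8% of all genes. At an adjusted p under 0.05 edgeR called 14 higher, beside 4.27% of all genes. Most of these 19 genes, S100a9 included, did not pass the filter in Winnie against C57BL/6 and entered here through the Winnie-Prolapse libraries, where they are high. S100a9 differed by 4.32 (SE 1.17, adjusted p = 0.0365), beside the difference of 0.44 for Cd177.

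**Figure D2:**
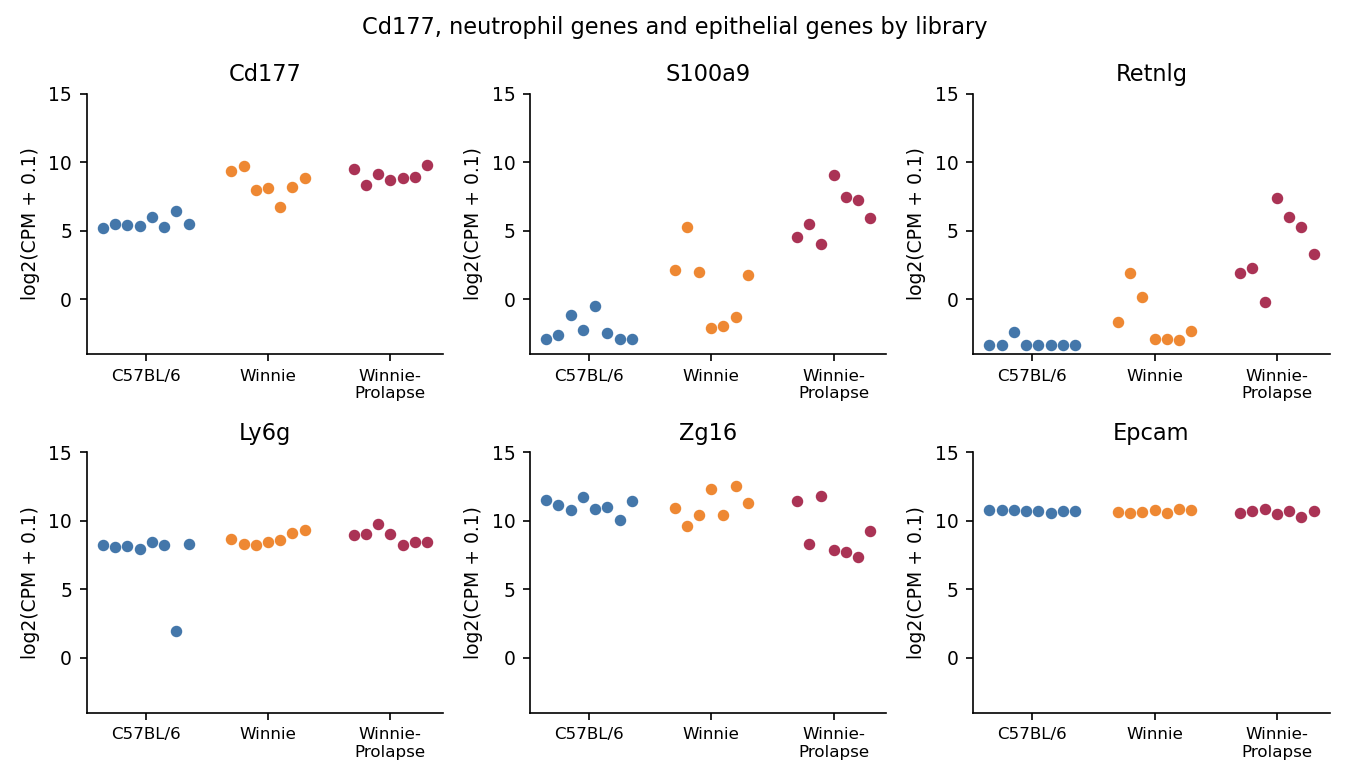
Level of 6 genes as log2(CPM + 0.1) in each library, in replicate order within each group. Cd177 separates C57BL/6 from the other groups, S100a9 and Retnlg are at C57BL/6 levels in Winnie replicates 4, 5 and 6 or close to them, Ly6g is high in all libraries but C57BL/6 replicate 7, and the epithelial gene Epcam is level across groups.

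Granule genes are transcribed mainly in immature neutrophils in the bone marrow, and Elane, Mpo and Ctsg were near 0. Ctsg was at 3 counts or fewer in every library, and Mpo reached at most 0.347 CPM. Ltf, which encodes lactoferrin and is also made by epithelia, was at 0.109 to 0.581 CPM in C57BL/6, 0.405 to 28.4 CPM in Winnie and 12.0 to 1123 CPM in Winnie-Prolapse. Of the 10 granule genes 4 passed the filter in Winnie-Prolapse and 3 (Ltf, Chil3 and Mmp25) were called higher, beside 9.84% of all genes. Chil3 and Mmp25 passed the filter there and not in Winnie against C57BL/6.

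The known partners of CD177 differed among themselves. Itgam was called higher in Winnie-Prolapse than in C57BL/6 (log2 fold change 3.11, SE 0.34, edgeR, adjusted p = 4.71e-06), and so was Itgb2 (2.60, SE 0.37). In Winnie, Itgam was at 3.48 to 23.6 CPM against 3.42 to 6.84 CPM in C57BL/6. By edgeR neither integrin gene passed the main limits there, where 0.0868% of all genes were called higher. DESeq2 called 1 of the 4 partner genes, beside 758 of 22121 genes higher and 445 lower. At an adjusted p under 0.05 edgeR called both integrin genes higher (adjusted p = 0.00762 and 0.0227), beside 7.42% of all genes. Pecam1, the endothelial partner, was at 18.7 to 34.8 CPM in C57BL/6, 13.3 to 45.2 CPM in Winnie and 23.4 to 65.0 CPM in Winnie-Prolapse and was called in neither contrast (log2 fold change 0.15 and 0.54, adjusted p = 0.613 and 0.0131, edgeR). Prtn3, which encodes proteinase 3, was not tested after the filter on low counts. Of 13 genes of neutrophil recruitment, 8 passed the filter in Winnie-Prolapse and were called higher, including the chemokine genes Cxcl2 and Cxcl5, where 9.84% of all genes were. Of these 8, Cxcl2 and Cxcl3 passed the filter there and not in Winnie against C57BL/6, so the filter itself favoured genes that were high in Winnie-Prolapse. Cxcl3 was named after its values were seen. In Winnie 0 of 6 were called by edgeR, with 6 at an unadjusted p under 0.05, beside 39.9% of all genes. DESeq2, run without this filter, called 4 of the 13, where it called 758 of 22121 genes higher and 445 lower.

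Few genes of general epithelium were called. Epcam, an adhesion protein of all intestinal epithelial cells, had 1489 to 1747 CPM in C57BL/6, 1482 to 1826 CPM in Winnie and 1216 to 1830 CPM in Winnie-Prolapse, and neither contrast passed the test (adjusted p = 0.645 and 0.983, edgeR). Of the 15 general epithelial genes, edgeR called 0 in Winnie, while 6 had an unadjusted p under 0.05, near the 39.9% of all genes, and DESeq2 called 0. Cdh17 was the 1 called higher in Winnie-Prolapse, beside 9.84% of all genes, and 0 were called without C57BL/6 replicate 2, Winnie-Prolapse replicate 1 or Winnie-Prolapse replicate 7. Relative to the mean of this list, log2 Cd177 was at -3.72 ± 0.39 for C57BL/6 (n = 8), -1.02 ± 1.04 for Winnie (n = 7) and -0.16 ± 0.47 for Winnie-Prolapse (n = 7). The ranges of this difference in Winnie and Winnie-Prolapse lay above that of C57BL/6, whose largest value was -2.97, with -2.58 the smallest in Winnie.

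Goblet genes were called in both directions in Winnie-Prolapse. Agr2, a disulfide isomerase needed for mucin folding, was the 1 goblet gene of 20 called in Winnie (log2 fold change 1.55, SE 0.19, edgeR, adjusted p = 0.000776), at 801 to 1899 CPM against 379 to 621 CPM in C57BL/6 with no overlap. The share of all genes called higher there was 0.0868%. No goblet gene was called by edgeR without C57BL/6 replicate 1 to 6 or 8, or without Winnie replicate 1, 2, 6 or 7, and limma-voom called 0 genes in all. In Winnie-Prolapse Agr2 and Spink4 were called higher, by 1.49 and 1.17 on the log2 scale, and Clca1 and Klk1 lower, Klk1 with a log2 fold change of -2.24. These 4 of the 19 tested stand beside 9.84% of all genes called higher and 8.47% lower, so the count at these limits is near the background. At an adjusted p under 0.05 edgeR called 2 of the 19 higher and 9 lower, beside 16.7% and 17.7% of all genes. Zg16, a lectin secreted by goblet cells, was at 1059 to 3309 CPM in C57BL/6 and at 1958, 799, 1329, 5179, 1373, 5906 and 2466 CPM in Winnie. The 2 Winnie mice with the most Zg16, replicates 4 and 6, had 279 and 285 CPM of Cd177, at and next to the group median. In Winnie-Prolapse Zg16 was at 2729, 322, 3506, 231, 209, 163 and 607 CPM, high in replicates 1 and 3 alone, and Cd177 there was 734 and 554 CPM against 330 to 878 CPM in the rest. The median log2 fold change was 0.04 over the 20 goblet genes in Winnie and -0.71 over the 19 tested in Winnie-Prolapse. Muc2 itself passed in neither contrast at the main limits (log2 fold change -0.65 and -0.84, adjusted p = 0.113 and 0.0155).

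Of 14 colonocyte genes, Car1, Slc26a3 and Mep1a were called lower in Winnie-Prolapse and 0 higher, where 8.47% of all genes were called lower. Squamous genes were low in the Winnie-Prolapse libraries where this list was high. Their sum was 4.79 and 2.33 CPM in Winnie-Prolapse replicates 1 and 3, with colonocyte list means of 8.39 and 8.78 in log2 CPM. In the other 5 the sum was 180 to 3331 CPM, with means of 6.10 to 7.60. Replicates 1 and 3 also had the lowest neutrophil list means, 1.81 and 0.66, against 2.17 to 5.46 in the other 5. The part of squamous tissue in these values was not tested. In Winnie edgeR called 0, while 2 had an unadjusted p under 0.05, below the 39.9% of all genes, and DESeq2 called 0. The inflamed epithelium list, which holds antimicrobial and oxidase genes that colon epithelium makes in colitis, had 14 members. In Winnie-Prolapse 9 of them were called higher and 0 lower (edgeR, beside 9.84% of all genes called higher, with 12 at an unadjusted p under 0.05 in either direction beside 58.5% of all genes). DESeq2 called 11 there, beside 2727 of 24191 genes higher and 2277 lower. In Winnie edgeR called 0 of the 13 tested, while 6 had an unadjusted p under 0.05, beside 39.9% of all genes. DESeq2, run without the filter, called 4 of the 14, beside 758 of 22121 genes higher and 445 lower. The median log2 fold change was 1.35 over the 13 tested in Winnie and 3.05 over the 14 tested in Winnie-Prolapse. Reg3b, named after its values were seen, passed the filter in Winnie-Prolapse and not in Winnie against C57BL/6. It reached 517 CPM in Winnie-Prolapse, so the 2 medians are over different sets. Duox2, the dual oxidase of the apical membrane, was at 823, 630, 349, 386, 219, 501 and 697 CPM in Winnie replicates 1 to 7, and Dmbt1, a secreted scavenger receptor, at 7275, 8435, 5327, 2559, 3345, 4664 and 5597 CPM. Replicates 1, 2 and 7 were the highest for Cd177, Duox2 and Dmbt1 alike, and replicate 5 was the lowest for Cd177 and Duox2. Saa1 and Pigr, also among the most abundant genes of this list, did not share that order. Saa1 was at 646, 340, 423, 794, 1055, 1173 and 1300 CPM in replicates 1 to 7, lowest in replicate 2, which had the most Cd177. Pigr varied little, at 4402 to 5603 CPM. Macrophages and other cells also express some of these genes, such as Nos2 and Ido1, which were named after their values were seen.

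**Figure D3:**
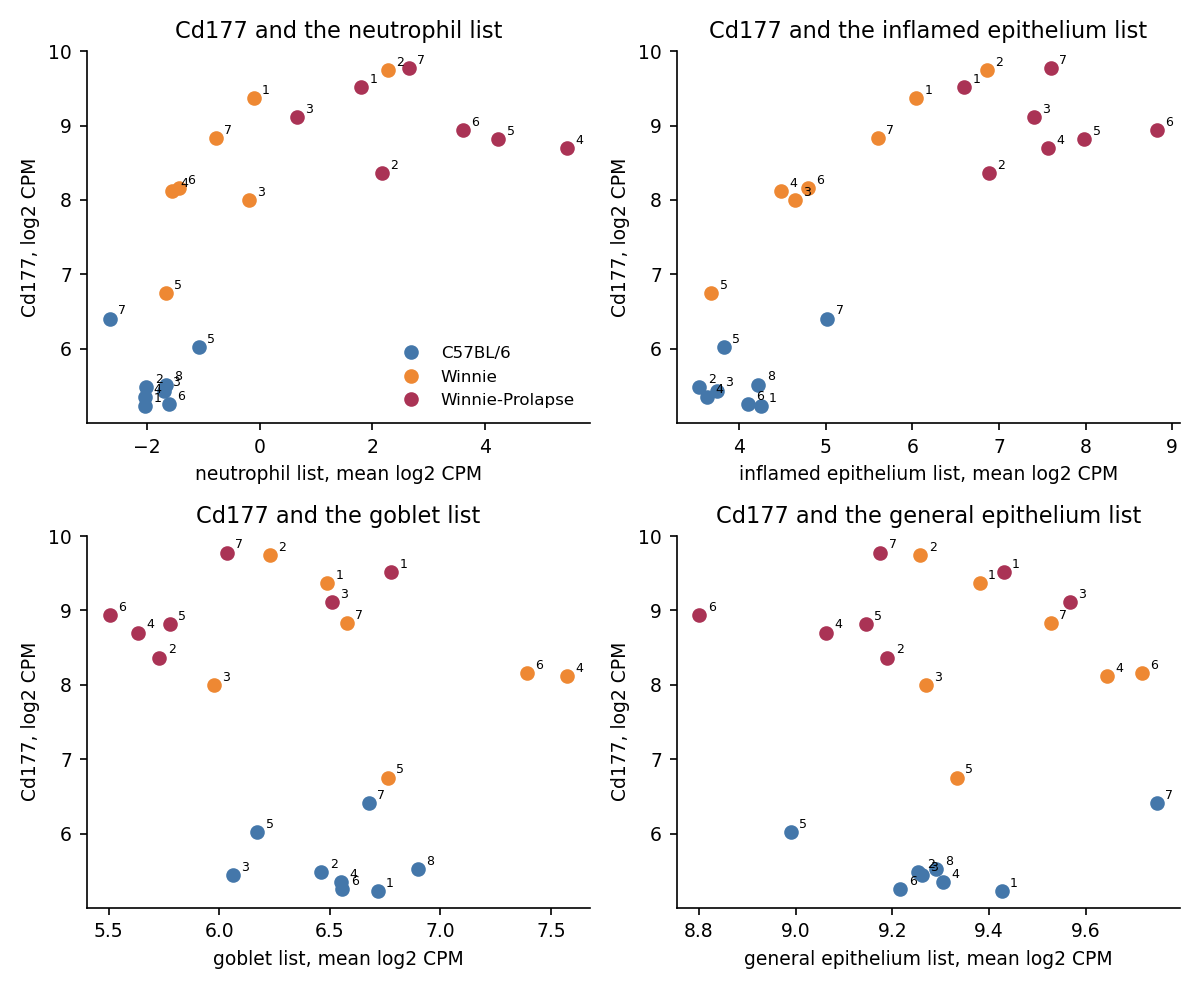
Cd177 against the mean of 4 marker lists, both in log2 CPM, with 1 point for each library and its replicate number beside it. For the inflamed epithelium list r was 0.976 within Winnie and -0.10 within Winnie-Prolapse, and for the neutrophil list it was 0.768 and -0.35.

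Since the 3 groups form separate clusters, relations of Cd177 to the list means were tested within each group by exact two-sided permutation, as 15 relations in all. In Winnie, Cd177 and the inflamed epithelium list had a Pearson r of 0.976 (exact permutation p = 0.000595, adjusted p = 0.00893, n = 7) and a Spearman rank correlation of 0.964 (exact p = 0.00278, adjusted p = 0.0417). This was the only 1 of the 15 with an adjusted p under 0.05. Leaving out replicates 1 and 2, the farthest from the median of the list, left r at 0.9635. Leaving out 1 mouse at a time gave r of 0.974 to 0.986, with an adjusted p by exact permutation of 0.0208 without replicate 4, 0.0417 without replicate 3 and 0.0625 without replicate 1, 2, 5, 6 or 7. With 1 mouse fewer the exact test has fewer orders, so its adjusted p moves in coarse steps. Crossing 0.05 therefore cannot show whether the relation depends on the mouse left out. The list means of the Winnie libraries ran from 3.68 in replicate 5 to 6.86 in replicate 2, on the log2 CPM scale. Log2 Cd177 exceeded the list mean by 3.27 ± 0.24 in Winnie (SD, n = 7), which had the smallest spread between mice, by 1.55 ± 0.41 for C57BL/6 (n = 8) and by 1.48 ± 0.92 for Winnie-Prolapse (n = 7). With the list taken as summed CPM, which the abundant Dmbt1 and Pigr dominate, r was 0.893 with an adjusted p of 0.0655 by exact permutation. The same list gave an r of 0.575 in C57BL/6 (exact p = 0.141, adjusted p = 0.393, n = 8) and -0.10 in Winnie-Prolapse (exact p = 0.831, adjusted p = 0.874, n = 7). The Winnie-Prolapse value turned with the processing, to 0.879 with summed CPM (exact permutation, adjusted p = 0.0714), to 0.20 with TMM scaling or with genes scaled to SD 1, and it was 0.21 without replicate 1. In C57BL/6 that value rested on replicate 7, without which r was -0.27. Differences in r between groups were not tested.

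Cd177 and the neutrophil list had an r of 0.768 in Winnie (exact permutation p = 0.0470, adjusted p = 0.353, n = 7) and a Spearman rank correlation of 0.786 (exact p = 0.0480, adjusted p = 0.360), which did not hold after correction. Without replicates 2 and 5, the farthest from the median, r was 0.508, and with the list as summed CPM, most of which is Ly6g, it was 0.414. In Winnie-Prolapse r was -0.35 (exact p = 0.443, adjusted p = 0.627), and it was below 0 in each of the 7 fits that left out a mouse. In C57BL/6 r was -0.24 (exact p = 0.498, adjusted p = 0.627, n = 8), 0.805 without replicate 7 and -0.76 with summed CPM. Without the 2 farthest libraries r was -0.26 in Winnie-Prolapse and 0.175 in C57BL/6. Winnie replicate 2 was the highest of its group for the neutrophil list, the inflamed epithelium list and the sum of squamous genes. Their parts in the level of Cd177 were not tested against each other.

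In the order C57BL/6, Winnie, Winnie-Prolapse, r was -0.08, -0.32 and 0.608 for the goblet list and -0.42, -0.70 and 0.602 for the colonocyte list, with adjusted p from 0.384 to 0.874 by exact permutation (n = 8, 7 and 7). For general epithelium r was 0.364, -0.13 and 0.314, with exact permutation p = 0.352, 0.771 and 0.501. The first of these was -0.87 without C57BL/6 replicate 7. Without the 2 libraries farthest from the median, r in C57BL/6, Winnie and Winnie-Prolapse was 0.157, -0.34 and 0.664 for goblet, -0.34, -0.56 and 0.688 for colonocyte and -0.38, 0.073 and 0.487 for general epithelium.

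**Figure D4:**
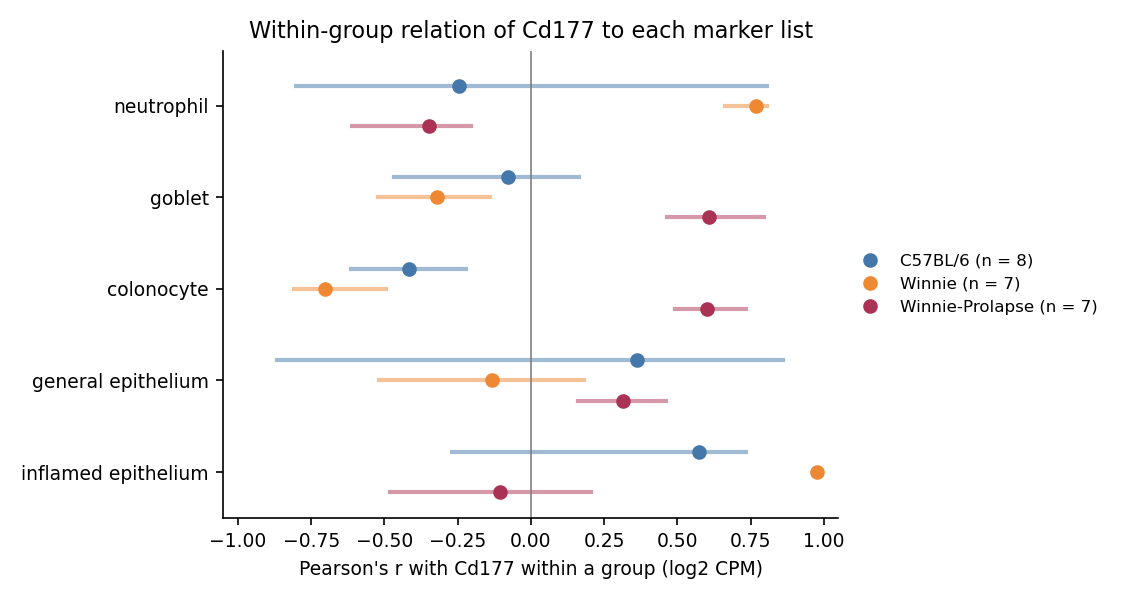
Pearson's r of Cd177 with 5 marker lists within each group, with lines for the range over fits that left out 1 library each. The Winnie value for inflamed epithelium, 0.976, ranged from 0.974 to 0.986, whereas the C57BL/6 lines for all lists but colonocyte, the Winnie line for general epithelium and the Winnie-Prolapse line for inflamed epithelium cross 0.

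Cd177 was next compared with each of 13596 genes whose mean log2 CPM reached 1, by Pearson's r of log2 CPM over the 22 libraries. These values are a description: they share the libraries and the group differences that chose Cd177. The 10 most alike were Clca4b, with r = 0.971, then Nlrc5, Ifi44, H2-Q10, Tnfrsf8, Gm12250, Zbp1, Cxcl9, Psmb9 and Zc3h12a, at 0.947. Clca4b, of the calcium-activated chloride channel regulator family, was at 2.06 to 14.0 CPM in C57BL/6. It was at 2712, 2782, 520, 184, 10.8, 770 and 2392 CPM in Winnie replicates 1 to 7 and at 1494 to 4199 CPM in Winnie-Prolapse. Winnie replicate 5, with the least Cd177, was also within the C57BL/6 range for Clca4b. Nlrc5 is the transactivator of MHC class I genes, Psmb9 encodes an immunoproteasome subunit, Zbp1 is a nucleic acid sensor and Cxcl9 is a T cell chemokine.

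With each gene centred on its group means, which takes out differences between those means, the 10 most alike were Ifi44 (r = 0.843), Ceacam10 (0.837), Plet1 (0.833), Clca4b (0.818), Eps8, B2m, Epsti1, H2-D1, Trim40 and Sec23b (0.782). Centring leaves unequal spread in place. The SD of log2 Cd177 was 0.995 in Winnie, against 0.413 in C57BL/6 and 0.485 in Winnie-Prolapse. Winnie mice thus hold most of the centred spread of Cd177, and these values reflect that group most. Clca4b and Ifi44 were in both lists of 10. B2m and H2-D1 encode the light and a heavy chain of MHC class I, and Ifi44 is an interferon-inducible gene. Ceacam10, the neighbour on chromosome 7, was at 37.2 to 50.6 CPM in C57BL/6 and at 144, 137, 58.4, 82.2, 52.8, 67.3 and 121 CPM in Winnie replicates 1 to 7. In Winnie-Prolapse it was at 161, 92.9, 122, 99.2, 99.2, 194 and 230 CPM, so its highest mouse, replicate 7, was also that of Cd177. Plet1 was at 0.952 to 2.89 CPM in 7 C57BL/6 libraries and at 155 CPM in replicate 7, the C57BL/6 library with the most Cd177. Of the 18 genes in either list, 15 had a RefSeq promoter entry, of which 6 held TATAAA, 5 GAGGAA, 4 GAAANNGAA and 2 TTCNNNGAA. Of all 27025 genes in that table, 14.3%, 25.9%, 8.18% and 8.13% held these motifs in the same order.

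The marker lists differed in centred likeness to Cd177. Winnie again weighs most in this measure, as the group with the widest spread of Cd177. The median centred r was 0.50 over the 12 inflamed epithelium genes compared, from 0.012 for Saa1 to 0.779 for Dmbt1, with 0.750 for Duox2. It was 0.11 over the 7 neutrophil genes compared, from -0.36 for Asprv1 to 0.626 for S100a8, or 0.22 over 6 of them without Ly6g. Over 19 goblet genes it was 0.02, and these were split, from -0.398 for Klk1 to 0.459 for Spdef. For the other lists tied to neutrophils it was 0.33 over 2 granule genes, 0.30 over 3 CD177 partner genes and 0.32 over 6 recruitment genes. Only 7 of the 22 neutrophil genes reached the mean level needed here, and genes near silent in C57BL/6, such as S100a9, reached it through the inflamed libraries. It was 0.16 for general epithelium and -0.04 for colonocytes, beside -0.04 over all genes compared. Among the other immune lists it was 0.48 over 4 T cell genes, 0.41 over 10 macrophage and monocyte genes and 0.12 over 5 B and plasma cell genes, and the 1 mast cell and eosinophil gene compared had -0.08. The smooth muscle median was -0.22, and the 6 smooth muscle genes were all called lower in Winnie-Prolapse, beside 8.47% of all genes.

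**Figure D5:**
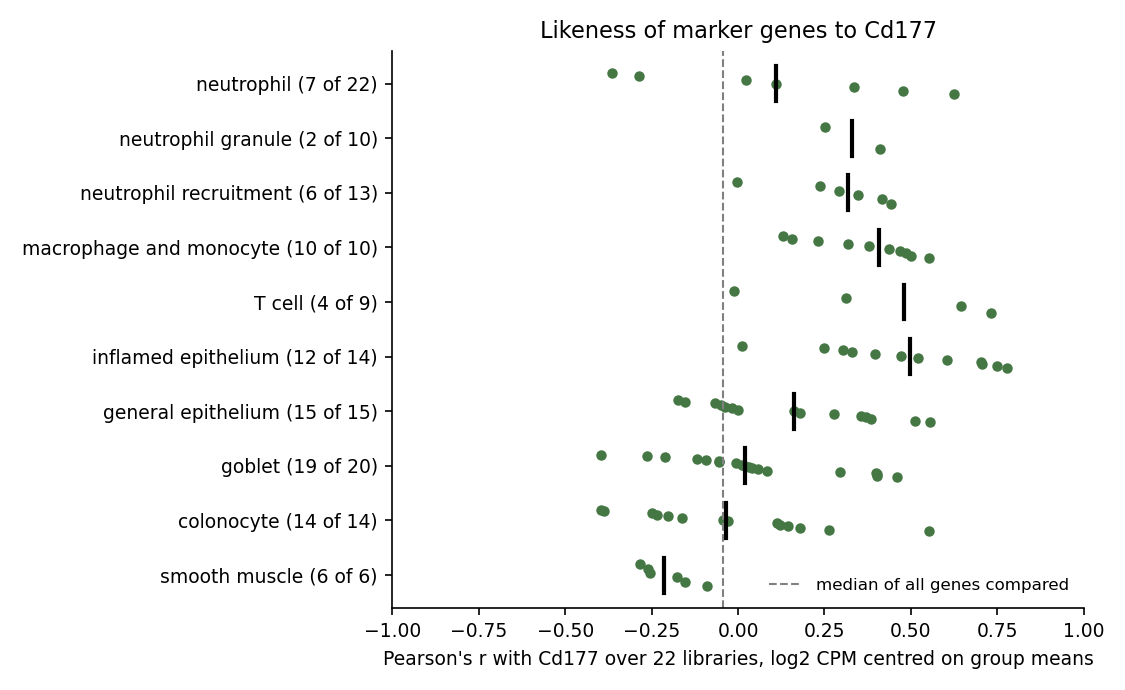
Pearson's r with Cd177 over 22 libraries after centring each gene on its group means, with 1 point for each marker gene whose mean log2 CPM reached 1, a bar for the list median and a dashed line for the median of all genes compared. The list medians reach 0.50 for inflamed epithelium and 0.48 for T cell genes. Genes spread from 0.012 to 0.779 for inflamed epithelium, from -0.36 to 0.626 for neutrophil and from -0.398 to 0.459 for goblet.

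Other cell types moved with the groups as well. Macrophage and monocyte genes summed to 75.0 to 151 CPM in C57BL/6, 118 to 324 CPM in Winnie and 231 to 462 CPM in Winnie-Prolapse, where 9 of 10 were called higher. B and plasma cell genes summed to 88.3 to 394, 348 to 1422 and 836 to 1665 CPM in the same order. Of 9 T cell genes 7 were called higher in Winnie-Prolapse and 1, Ctla4, in Winnie. The shares of all genes called higher were 9.84% and 0.0868%. The Winnie call was lost without C57BL/6 replicate 1, 2 or 6. DESeq2 called 5 of the 9, where it called 758 of 22121 genes higher. At an adjusted p under 0.05 edgeR called 8, beside 7.42% of all genes called higher. Ctla4 was named after its values were seen. Their part in the level of Cd177 was not tested.

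Among 16 other genes of the Ly6/uPAR family, 6 of the 9 that passed the filter were called higher in Winnie-Prolapse, beside 9.84% of all genes, and the other 7 of the family did not pass. In Winnie 0 of 8 were called by edgeR, with 6 of the 8 at an unadjusted p under 0.05, beside 39.9% of all genes. DESeq2, run without the filter, called 3 of the 16, beside 758 of 22121 genes higher and 445 lower. Ly6a, an interferon-responsive member known as Sca-1, had a centred r of 0.650 with Cd177, and Ly6e, another interferon-responsive member, one of 0.530, whereas Ly6g had the lowest of the family, -0.29. Lypd8, a colonocyte protein that keeps flagellated bacteria off the epithelium, had one of 0.264. The median centred r was 0.51 over the 7 family genes compared. Family members that neighbour Cd177 on its other side were near silent: Gm4763, 17074 bases away, had counts in 1 library, BC049730 reached at most 0.134 CPM and Tex101 had no count.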

How the data were processed

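Poly(A) RNA of distal colon was sequenced from 22 mice with a stranded kit. The authors ran the RNAsik pipeline on GRCm38, with STAR, and deposited raw featureCounts read counts per gene, without normalization; the versions of STAR and featureCounts, and how reads matching several genes were treated, are not given in the sources used here. Totals of 24817527 to 36344372 counts left a counting error on Cd177 of 0.611% to 3.21%. Cd177, its marker lists (15 lists, 175 distinct genes) and the tests were chosen with earlier results of these data known. Named genes were Cd177, Muc2, every neutrophil, granule, partner and goblet gene, the 4 most abundant genes of each other list, and the 10 genes most like Cd177 by either measure; other names were chosen after their values were seen.

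Contrasts used edgeR 4.0.16 quasi-likelihood tests in R 4.3.3 (TMM, filterByExpr, Benjamini-Hochberg over all genes), called at the study's limits of adjusted p under 0.001 and 1.5-fold; sex and the interaction used adjusted p under 0.05. Within-group relations used log2 CPM (prior count 2) and exact permutation, adjusted over 15. Alternatives were DESeq2 1.42.0, limma-voom (limma 3.58.1), other scalings, filters and limits, 1 sex alone and leaving out each library. The scripts were tested on simulated data. No replicates were duplicates by a chi-square test of their counts.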

Additional observations from a re-analysis of the deposited data

Results flagged for a closer look

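In 33 checks of groups for a library far from its group, 7 stood out, where chance gives about 1 in 20. C57BL/6 replicate 7 had 3.80 CPM of Ly6g and 7901 CPM of Muc2. Winnie-Prolapse replicate 3 had 872 CPM of Ly6g, and Winnie-Prolapse replicate 1 had 3079 CPM of Muc2. S100a9 was at 38.9 CPM in Winnie replicate 2 and at 532 CPM in Winnie-Prolapse replicate 4. The mean of the neutrophil list was 2.27 on the log2 CPM scale in Winnie replicate 2. No Cd177 value stood out in this way in any of the 3 groups.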

How the results depend on the processing

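The log2 fold change of Cd177 stayed above 0 under all 24 alternatives run for each contrast with C57BL/6, from 2.41 to 3.87 in Winnie and from 3.38 to 3.73 in Winnie-Prolapse. Winnie-Prolapse against Winnie gave -0.19 in males alone and 1.12 in females alone, with adjusted p from 0.128 to 0.948 over all alternatives. The difference between sexes was -0.0063 by limma-voom and ran from -0.14 to 0.14 when libraries were left out.

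Counts of called genes depended on the tool and on the limit. In Winnie against C57BL/6 edgeR called 15 genes higher and 1 lower, DESeq2 758 and 445, and limma-voom 0 (edgeR gave 1282 and 1475 at an adjusted p under 0.05, and 6901 had an unadjusted p under 0.05). In Winnie-Prolapse edgeR called 1712 and 1474, or 2902 and 3079 at an adjusted p under 0.05, and DESeq2 2727 and 2277. Against Winnie edgeR called 0 and 0, or 727 and 464 at an adjusted p under 0.05, and DESeq2 482 and 162. In Winnie, DESeq2 called 4 neutrophil, 2 goblet and 4 inflamed epithelium genes, and an adjusted p under 0.05 gave 4 neutrophil, 2 goblet, 2 colonocyte, 1 general epithelium and 5 inflamed epithelium genes. Leaving out libraries gave 0 to 1 neutrophil, 0 to 2 goblet and 0 to 2 inflamed epithelium genes. In Winnie-Prolapse against C57BL/6, an adjusted p under 0.05 gave 11 goblet, 9 colonocyte and 2 general epithelium genes, DESeq2 gave 5 colonocyte genes, and leaving out libraries gave 2 to 5 colonocyte and 0 to 2 general epithelium genes. Against Winnie, DESeq2 called 9 neutrophil, 1 goblet and 5 inflamed epithelium genes, and an adjusted p under 0.05 gave 14 neutrophil, 2 goblet, 4 colonocyte and 5 inflamed epithelium genes.

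Within Winnie, r with general epithelium was 0.019 after TMM scaling, 0.31 with summed CPM, 0.23 with genes scaled to SD 1 and -0.52 to 0.18 when libraries were left out. With inflamed epithelium it was 0.89 with summed CPM and 0.974 to 0.986 with libraries left out, with an adjusted p by exact permutation of 0.0208 without replicate 4, 0.0417 without replicate 3 and 0.0625 without each of the other 5. The exact test moves in coarse steps with 1 mouse fewer. Within Winnie-Prolapse, r with inflamed epithelium was 0.20 after TMM scaling, 0.88 with summed CPM, 0.20 with genes scaled to SD 1, 0.077 without milk genes and -0.48 to 0.21 with libraries left out. Within C57BL/6, leaving out libraries gave -0.80 to 0.80 for neutrophil, -0.47 to 0.17 for goblet, -0.87 to 0.86 for general epithelium and -0.27 to 0.74 for inflamed epithelium. The causes were not tested. No paired analysis was possible because the labels give no replicate numbers that pair mice across groups.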
